A study of Mus musculus with 3 samples.

Results

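The 9 genes described here code for the LIN28 proteins (Lin28a, Lin28b), their partner in let-7 control Trim71, the IGF2 mRNA-binding proteins (Igf2bp1, Igf2bp2, Igf2bp3), the HMGA chromatin proteins (Hmga1, Hmga2) and the transcription factor Mycn. They were chosen by name, as oncofetal genes, and each matched 1 locus among the 48626 loci of the expression table, of which 20117 are mRNA loci. The values come from heart ventricle of C57BL/6 mice at the embryonic stages E10.5 and E13.5 (days after conception) and at the adult age of 8 weeks. Total RNA was sequenced from 1 library at each stage with a stranded kit, in a study that searched for long non-coding RNAs of the developing heart. No treatment or mutation was part of these samples, and the labels do not say how many animals went into a library.

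Oncofetal genes are active in embryonic tissue, nearly silent in most adult organs and active again in many tumours. LIN28 proteins bind the precursors of the let-7 microRNAs and block their maturation, while mature let-7 binds the 3′ untranslated regions (3′ UTRs) of Lin28a, Lin28b, Hmga2, Trim71 and several Igf2bp mRNAs and lowers their output. IGF2BP proteins bind mRNAs and regulate their stability, location and translation, HMGA proteins bend AT-rich DNA, and MYCN is needed for growth of the embryonic ventricle wall.

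Levels are given in FPKM, sequenced fragments scaled by exon length and by library size, which allows levels to be set side by side between genes. Where 3 values of a gene are given in a row, they stand in the order E10.5, E13.5, adult. A change is the difference of log2(FPKM + 1) between libraries, a scale that understates the change of low loci. A gene was counted as lower or higher when this difference was at least 1. Since each stage had a single library, no difference has a replicate check, neighbours in any order of levels cannot be separated from each other, and no p-value is given. From the smallest steps in the values, 1 FPKM over 1 kb corresponded to about 13.99 (E10.5), 24.4 (E13.5) and 13.9 (adult) fragments. In whole tissue, fewer cells of a type and less RNA per cell cannot be told apart. As a check for heart muscle, 6 cardiomyocyte genes had a summed level of 7650 FPKM (E10.5), 10547 (E13.5) and 11342 (adult). This sum does not check the ventricle label itself. None of the 7 pluripotency and germ cell genes reached 1 FPKM in any library, and Pou5f1 and Dppa3 were listed at 0 in all 3.

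The let-7 family explains why most of these genes are studied together, so its sequences are shown first. RefSeq (GRCm38.p6, the assembly of mm10) lists 12 let-7 and miR-98 gene entries whose mature strand has the seed GAGGUAG, bases 2 to 8 from the 5′ end. The capitals mark the seed in 5 of them, and in let-7j, which has another seed.
let-7a: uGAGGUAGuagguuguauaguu
let-7b: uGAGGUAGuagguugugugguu
let-7d: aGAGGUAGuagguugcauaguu
let-7g: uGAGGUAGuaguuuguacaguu
miR-98: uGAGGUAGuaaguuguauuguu
let-7j: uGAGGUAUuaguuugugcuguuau

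The bases that pair with this seed, CTACCTC, occurred in the RefSeq 3′ UTR of 8 of the 9 genes, 19 times in all. An A, the base that favours let-7 binding, followed 11 of the 19 matches. Matches are descriptions of the sequence and not shown to be bound in these samples. The first match of each gene is given 5′ to 3′ on the mRNA strand, with the match in capitals, together with its flanks.
Lin28a, chr4:134005189-134005210, minus strand: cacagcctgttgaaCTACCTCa
Lin28b, chr10:45381022-45381043, minus strand: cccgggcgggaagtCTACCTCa
Trim71, chr9:114512472-114512493, minus strand: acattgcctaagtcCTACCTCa
Igf2bp1, chr11:95961778-95961799, minus strand: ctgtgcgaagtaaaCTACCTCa
Igf2bp2, chr16:22059473-22059494, minus strand: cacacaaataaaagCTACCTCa
Igf2bp3, chr6:49086787-49086808, minus strand: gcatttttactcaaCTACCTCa
Hmga1, chr17:27563278-27563299, plus strand: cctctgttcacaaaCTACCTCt
Hmga2, chr10:120364224-120364245, minus strand: ccgacattcaatttCTACCTCa

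Lin28b, Igf2bp1 and Hmga2 held 4 matches each, in 3′ UTRs of 4446, 6337 and 2984 nt. Lin28a and Trim71 held 2 each, Igf2bp2, Igf2bp3 and Hmga1 held 1 each, and Mycn, with a 3′ UTR of 913 nt, held none. Relative to its length, the 3′ UTR of Trim71 was the densest of the 9, at 1.45 matches per kb, followed by that of Hmga2 at 1.34.

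All 9 genes stood lower in adult ventricle than at E10.5. The members' median level was 38.4 FPKM (E10.5), 19.2 (E13.5) and 0.127 (adult). At E10.5, 9 of 9 genes were at 1 FPKM or more, at E13.5 7 were, and in the adult only Igf2bp2 and Hmga1 were. The number of mRNA loci at 1 FPKM or more moved little in comparison, at 11296, 11608 and 11160.

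**Figure D1:**
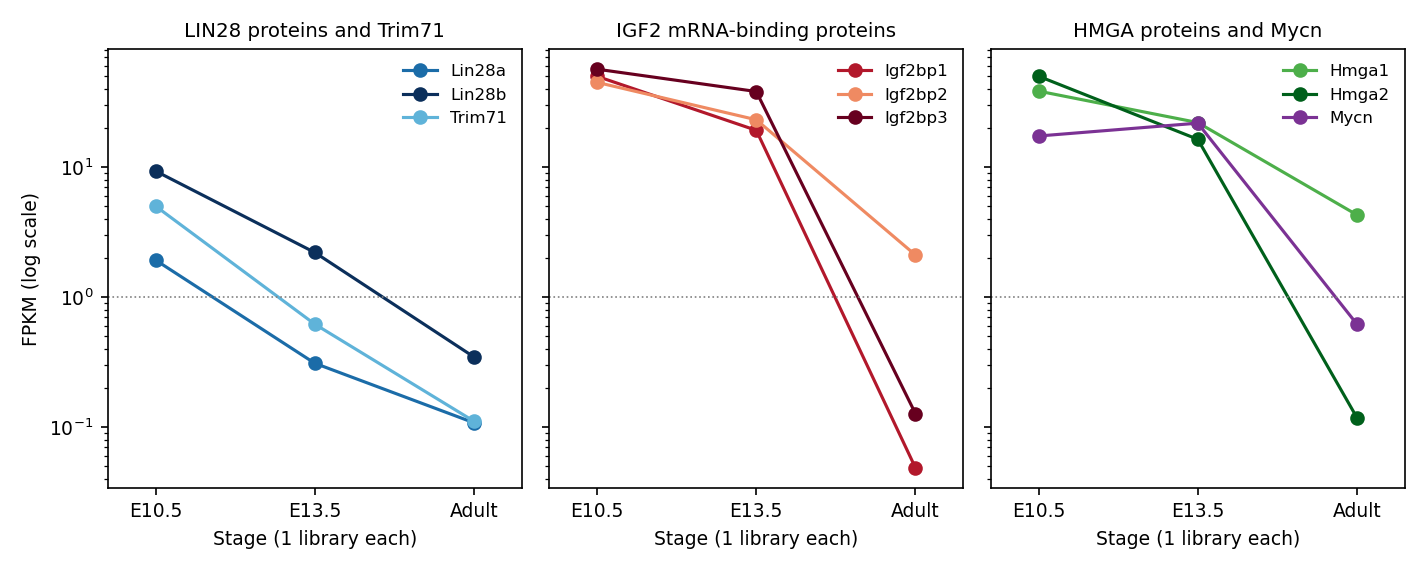
FPKM of the 9 genes (y axis, log scale) in the E10.5, E13.5 and adult ventricle libraries (x axis), 1 point per library. The dotted line is 1 FPKM. Only Igf2bp2 (2.10) and Hmga1 (4.28) lie above it in the adult, and only Mycn is higher at E13.5 (21.7) than at E10.5 (17.3).

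Among the let-7 regulators, Lin28b was the main LIN28 transcript of the ventricle at every stage. Lin28b (chr10:45375827-45470201) stood at 9.31 FPKM (E10.5), 2.20 (E13.5) and 0.346 (adult), an E10.5-to-adult change of -2.94. Lin28a (chr4:134003330-134018816) stood at 1.92, 0.309 and 0.108 FPKM, a change of -1.40. Lin28b made up 82.9% (E10.5), 87.7% (E13.5) and 76.2% (adult) of the summed LIN28 level. The adult share rests on about 26 fragments of Lin28b and 5 of Lin28a, so it is imprecise. Trim71 (chr9:114510886-114564369), an RNA-binding ubiquitin ligase of stem and progenitor cells that is itself a classical let-7 target, stood at 5.003, 0.618 and 0.111 FPKM, a change of -2.43.

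These 3 genes had the earliest change of the group. By E13.5, 82.8% of the Lin28a difference between E10.5 and the adult was reached on the log2(FPKM + 1) scale, 77.7% of that of Trim71 and 57.5% of that of Lin28b. These shares are smaller with a pseudocount of 0.1. The changes from E10.5 to E13.5 and to the adult were then -2.31 and -3.28 for Lin28a. They were -2.83 and -4.60 for Trim71, and -2.03 and -4.40 for Lin28b. Trim71 was 8.10-fold higher in FPKM at E10.5 than at E13.5, Lin28a 6.22-fold and Lin28b 4.23-fold. Lin28a and Trim71 were then already under 1 FPKM, and their changes from E13.5 to the adult, -0.24 and -0.54, did not reach 1 on the log2(FPKM + 1) scale. In FPKM, the E13.5 level was 5.58-fold the adult one for Trim71, 6.37-fold for Lin28b and 2.87-fold for Lin28a. These ratios are imprecise, since the adult levels rest on about 8, 26 and 5 fragments, in the same order. With a pseudocount of 0.1, the late change of Trim71 was -1.77 and that of Lin28a -0.98. At that setting 8 of the 9 genes were lower by at least 1 from E13.5 to the adult, beside 36.9% of mRNA loci.

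The 3 IGF2BP genes were among the more abundant transcripts of the E10.5 ventricle, at similar levels. Igf2bp1 (chr11:95956597-96006091) stood at 49.8 FPKM (E10.5), 19.2 (E13.5) and 0.0485 (adult). Igf2bp2 (chr16:22059009-22163299) stood at 44.8, 23.1 and 2.10 FPKM. Igf2bp3 (chr6:49084320-49215438) stood at 56.6, 38.1 and 0.127 FPKM. At E10.5, 8.43% of mRNA loci that reached 1 FPKM in any library were at or above Igf2bp3, and in the adult 97.2% were.

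From E10.5 to the adult, the log2(FPKM + 1) changes were -5.68 for Igf2bp3, -5.60 for Igf2bp1 and -3.88 for Igf2bp2. A fall as large as that of Igf2bp3 was found in 0.310% of the 12569 mRNA loci that reached 1 FPKM in any library, as large as that of Igf2bp1 in 0.342%, and as large as that of Igf2bp2 in 1.40%. The FPKM ratio of E10.5 to the adult was 1029 for Igf2bp1, 447 for Igf2bp3 and 21.3 for Igf2bp2. The first 2 ratios rest on about 6 and 8 adult fragments, so their size is imprecise, while about 114 fragments stand behind adult Igf2bp2.

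The makeup of the family therefore differed between embryo and adult. At E10.5 the summed level was 151 FPKM, of which Igf2bp1 was 33.0%, Igf2bp2 29.6% and Igf2bp3 37.4%. At E13.5 the sum was 80.3 FPKM and Igf2bp3 held 47.4% of it, against 23.8% for Igf2bp1. In the adult the sum was 2.28 FPKM, of which Igf2bp2, the member known to remain expressed in adult tissues, was 92.3%. Igf2bp3 was also the member whose level moved least early on, with 9.84% of its difference reached by E13.5, against 23.8% for Igf2bp1 and 23.9% for Igf2bp2.

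The HMGA pair divided in a similar way. Hmga2 (chr10:120359485-120476935), the form most restricted to embryonic tissue, stood at 49.96 FPKM (E10.5), 16.3 (E13.5) and 0.118 (adult), a change of -5.51 from the first to the last. Hmga1 (chr17:27556574-27563925) stood at 38.4, 21.98 and 4.28 FPKM, a change of -2.90, and had the highest adult level of the 9 genes. Hmga2 was 56.6% (E10.5), 42.6% (E13.5) and 2.68% (adult) of the summed HMGA level. Hmga1 has processed pseudogenes whose near-identical reads the authors' mapping could have split, so its values are uncertain. Adult Hmga2 rests on about 7 fragments.

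Mycn (chr12:12936093-12941836) was the exception in timing. It stood at 17.3 FPKM (E10.5), 21.7 (E13.5) and 0.617 (adult). From E10.5 to E13.5 it changed by 0.31, the only one of the 9 above 0, and from E13.5 to the adult by -3.81. Mycn was also the only one of the 9 without CTACCTC in its RefSeq 3′ UTR. Other kinds of let-7 match were not searched, and a link to its timing was not tested.

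Counted together, 9 of 9 genes had an adult level at least 1 below that of E10.5, as had 27.3% of the 12569 mRNA loci. By at least 2, 8 of the 9 were lower, all but Lin28a, against 8.1% of loci. Their median change was -3.50, and that of all these loci was -0.40. From E13.5 to the adult 7 of 9 were lower by at least 1, against 32.1% of loci, and 6 by at least 2, against 9.88%, with a median of -2.96 beside -0.50. From E10.5 to E13.5 5 of 9 were lower by at least 1 (Trim71, Lin28b, Hmga2, Igf2bp1 and Lin28a), against 4.85% of loci, and none by at least 2, against 0.247%. Their median change was -1.16, while that of all the loci was 0.17. The genes were picked for a known embryonic bias, so these counts describe them and are no independent evidence of the direction.

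**Figure D2:**
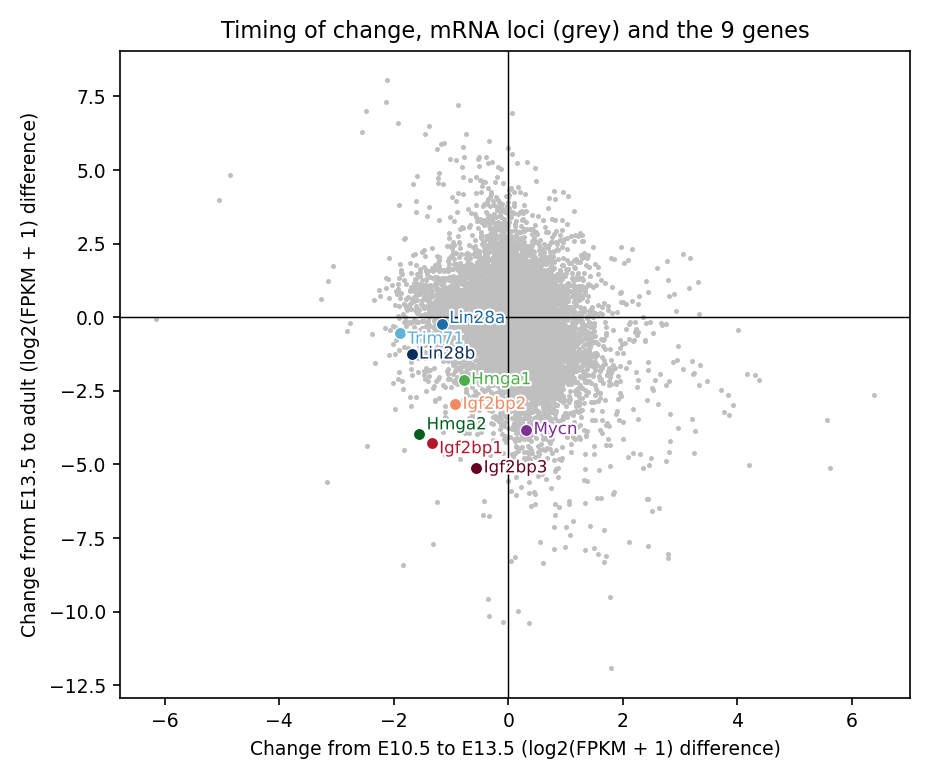
Change from E10.5 to E13.5 (x axis) against change from E13.5 to the adult (y axis), both as log2(FPKM + 1) differences, for 12569 mRNA loci (grey) and the 9 genes (coloured). Trim71 and Lin28a lie to the left and near 0 on the y axis, Lin28b lies to the left at -1.25, Igf2bp3 and Mycn lie low and close to 0 on the x axis, and Hmga2 and Igf2bp1 lie low and to the left.

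Changes that involve the E13.5 library moved with transcript length. Over mRNA loci, the median change from E10.5 to E13.5 went from 0.55 for transcripts of up to 1000 nt to -0.63 for those longer than 8000 nt, and the median change from E13.5 to the adult went from -0.97 to 0.32. Between E10.5 and the adult the medians of the length classes lay between -0.36 and -0.43. The 9 genes have RefSeq transcripts of 2004 nt (Hmga1) to 8381 nt (Igf2bp1). With the median of mRNA loci of like length subtracted, the change of Igf2bp1 from E10.5 to E13.5 was -0.70 in place of -1.33, and 10.2% of loci of its length class were as low. The same values were -1.76 for Trim71, -1.56 for Lin28b, -1.52 for Hmga2 and -1.27 for Lin28a, and -1.04 for both Igf2bp2 and Hmga1, so that 6 of 9 were lower by at least 1. From E10.5 to the adult 8 of 9 were, with Lin28a at -0.98. The share of all mRNA loci lower by at least 1 after this subtraction was not computed, so these counts describe the 9 genes alone. From E10.5 to E13.5, 0.85% (Trim71) to 4.56% (Igf2bp2) of loci of their length class were as low as the 6 genes. Lin28a from E13.5 to the adult became 0.26 after this subtraction. The part of length in these E13.5 values was not tested further.

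**Figure D3:**
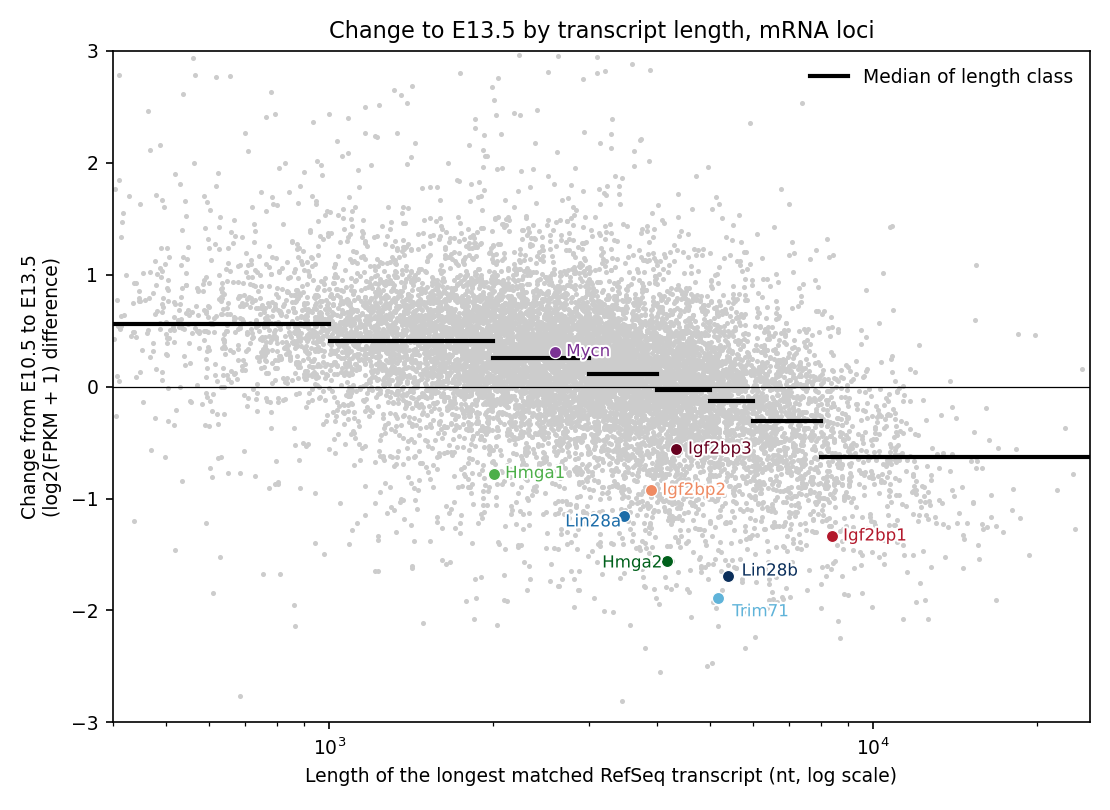
Change from E10.5 to E13.5 as a log2(FPKM + 1) difference (y axis) against the length of the longest matched RefSeq transcript in nt (x axis, log scale), for mRNA loci (grey), with the median of each length class (black bars) and the 9 genes (coloured). Loci outside the axis ranges are not drawn. The bars descend from 0.55 to -0.63, and 8 of the 9 genes lie below the bar of their class, with Mycn 0.05 above it.

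The let-7 matches were also counted over all mRNA loci. A match was found in 9.56% of the 12459 mRNA loci with a RefSeq 3′ UTR, and in 8 of the 9 genes. Only 8 loci, or 0.0642%, held 4 or more: Nr6a1 with 8, Trim6 with 6, and Hmga2, Igf2bp1, Lin28b, Hic2, Igdcc3 and Ptafr with 4 each. Several of the 9 are textbook let-7 targets, so this share is part of why they are grouped and not a separate result.

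Across all loci, the share with an adult level lower than that of E10.5 differed little with 0 or 1 match (27.2% and 27.7%), was 33.9% with 2, and was 68.4% of the 19 loci with 3 or more. Without the 3 members among them, 10 of 16 loci (62.5%) were lower, with a median change of -1.52, and 1 was higher. From E13.5 to the adult the shares ran otherwise, at 32.6% with 0 matches, 27.3% with 1, 29.6% with 2 and 42.1% with 3 or more. Loci with more matches have longer 3′ UTRs, with a median of 953 nt at 0 matches and 4262 nt at 3 or more. Among loci with 3′ UTRs of 2080 nt or more, 23.4% of those without a match and 27.0% of those with at least 1 were lower. Ptafr, a receptor gene of myeloid cells, had 4 matches and a change of 2.77, opposite in sign to Hmga2 with the same number.

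**Figure D4:**
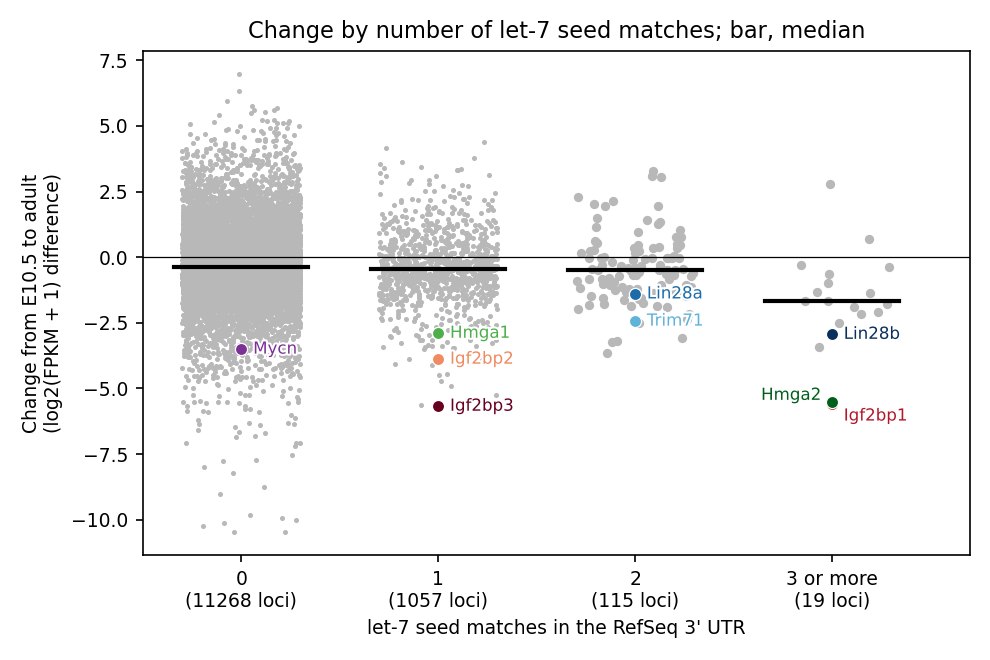
Change from E10.5 to adult as a log2(FPKM + 1) difference (y axis) by the number of let-7 seed matches in the RefSeq 3′ UTR (x axis), for mRNA loci (grey, spread sideways for visibility) and the 9 genes (coloured), with bars for medians over all loci of a class. The medians of 0, 1 and 2 matches are -0.39, -0.47 and -0.50, and that of the 19 loci with 3 or more is -1.67.

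Mature let-7 was not measured in these libraries, and only the loci of its precursors and their hosts can be described. Of 16 precursor and host genes, 15 matched 11 loci, of which 1 was higher and 1 lower in adult ventricle than in that of E10.5. Over all mRNA loci 14.8% were higher and 27.3% lower, and 4 of the 11 loci were at 0 in every library. These counts are therefore no result about let-7. The locus of Mirlet7b and Mirlet7c-2 stood at 0.155 FPKM (E10.5), 0.753 (E13.5) and 2.35 (adult). The locus of Mirlet7a-2 stood at 0.498, 0.777 and 1.97 FPKM, and that of Mirlet7a-1, Mirlet7d and Mirlet7f-1 at 5.58, 11.6 and 7.43. Wdr82, whose locus hosts Mirlet7g, was the lower one, at 49.5, 65.4 and 21.6 FPKM. The hairpin loci Mirlet7f-2, Mirlet7g, Mirlet7i and Mir98 were listed at 0 in every library, which in a library of long RNA fragments says nothing of the mature microRNA.

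Of 13 genes that process let-7 or, with LIN28, mark and degrade its precursor, 5 were lower and 1 higher in adult ventricle than in that of E10.5, with a median of -0.87. Over all mRNA loci 27.3% were lower and 14.8% higher in this comparison, with a median of -0.40. Tarbp2, a Dicer partner, stood at 13.1 FPKM (E10.5), 13.7 (E13.5) and 3.04 (adult). Zcchc11, the uridylyltransferase that LIN28A recruits to the let-7 precursor, stood at 44.3, 21.6 and 14.4 FPKM. Ago2 (named Eif2c2 in the files), the slicing Argonaute, stood at 29.2, 6.67 and 9.22 FPKM, and Dicer1, which cuts the precursor, at 25.7, 10.9 and 8.99. Ago4 was the higher one, with a change of 1.36.

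Of 18 other genes known as let-7 targets, 12 had a lower adult level than at E10.5 and none a higher one, with a median change of -1.53, beside 27.3% of all loci and their median of -0.40. Ccnd2, a D-type cyclin, stood at 155 FPKM (E10.5), 37.8 (E13.5) and 19.8 (adult). Cdc25a, a phosphatase that activates cyclin-dependent kinases, stood at 16.8, 17.7 and 1.73 FPKM. Arid3a, a DNA-binding protein, stood at 9.87, 4.55 and 0.933 FPKM. The list holds cell cycle genes, and the proliferation genes given further on moved with it.

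Among 7 RNAs known to be bound by IGF2BP proteins, 3 were lower in the adult and none higher, with a median of -0.96, beside 27.3% of all loci and their median of -0.40. H19, an imprinted non-coding RNA, stood at 3741 FPKM (E10.5), 7460 (E13.5) and 4.47 (adult). Igf2, the growth factor whose mRNA gave the family its name, stood at 566, 451 and 3.19 FPKM. Ctnnb1 was the third, at 294, 367 and 138 FPKM. Myc, whose mRNA Igf2bp1 is known to stabilise, was at 4.36, 3.001 and 1.76 FPKM, a change of -0.96.

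In the network of Myc and its partner Max, 1 of 11 genes had a lower adult level than at E10.5 and none a higher one. That gene was Mxd3, a Max partner of dividing cells, at 3.23, 10.7 and 0.0386 FPKM. Max itself was at 13.1, 14.7 and 13.8 FPKM, a change of 0.07 beside the -3.50 of Mycn. Among 13 writers, erasers and other readers of m6A, the RNA mark that IGF2BP proteins can read, 3 were lower (Rbm15, Ythdf2 and Ythdf1, by -1.50, -1.16 and -1.11) and none was higher, with a median of -0.81. A count of 3 in 13 is close to the 27.3% of all loci and is no result about these genes.

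**Figure D5:**
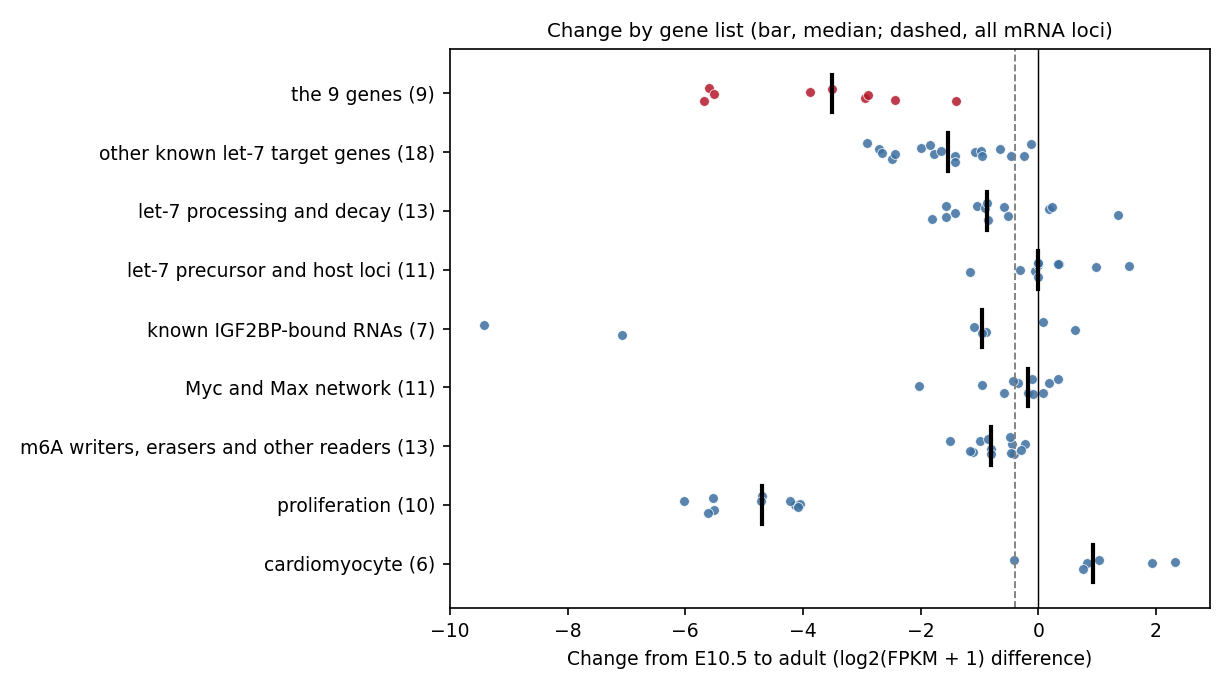
Change from E10.5 to adult (x axis, log2(FPKM + 1) difference) for the 9 genes (red) and 8 further lists (blue), with 1 point per locus, a black bar at the median of each list and a dashed line at the median of mRNA loci, -0.40. The number of loci is in brackets. The median of the 9 genes is -3.50, that of the proliferation list -4.70, and that of the cardiomyocyte list 0.92.

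Markers of dividing cells moved with the 9 genes from E10.5 to the adult. Adult levels of all 10 proliferation genes were lower than those at E10.5, with a median change of -4.70, and their summed level was 564 FPKM (E10.5), 674 (E13.5) and 7.56 (adult). From E10.5 to E13.5 none of the 10 was lower by 1, and their median change was 0.27 beside -1.16 for the 9 genes. Of these genes, Ccna2 had the largest difference, at 114, 151 and 0.787 FPKM. Primitive red cell genes also went from a summed 6727 FPKM at E10.5 and 16305 at E13.5 to 3.05 in the adult, with 3 of 3 lower, and 3 of 6 loci of definitive red cells and their precursors were lower and 1 higher. Of 6 epicardial and fibroblast genes 3 were lower, with sums of 226, 342 and 120 FPKM, and 1 of 6 endothelial genes was lower, with sums of 238, 154 and 230. Fetal liver genes summed to 8.61, 23.2 and 1.58 FPKM, with 2 of 7 lower, and 1 of 6 neural genes was lower, with sums of 11.4, 15.2 and 6.75. Macrophage genes went the other way, with 6 of 6 higher and sums of 7.22, 54.9 and 173 FPKM. From E10.5 to the adult, 27.3% of all mRNA loci were lower and 14.8% higher. Counts such as 2 of 7 or 1 of 6 lower lie near or below that share and are no result about these cell types. The part of these cell types in the levels of the 9 genes was not tested.

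For each gene, the mRNA loci with the nearest 3 values were found by the distance between their log2(FPKM + 1) values in the 3 libraries, which describes 3 points only. Igf2bp1 and Hmga2 were each other's nearest locus of all, at a distance of 0.24. Mycn was nearest to Gins2, Dctd and Kif4, at distances of 0.093 to 0.15, of which Gins2 is a DNA replication gene and Kif4 a mitotic kinesin. Hmga1 was nearest to Srm (0.078), the spermidine synthase gene, and Igf2bp3 to Bmp7 (0.34). Lin28a was nearest to Fgf10 (0.12), Lin28b to Gm98 (0.12), Igf2bp2 to Nid2 (0.27) and Trim71 to Lipg (0.42). Bmp10, a growth factor of the trabecular wall, was among the nearest 3 of both Igf2bp1 and Igf2bp3, at 57.2 FPKM (E10.5), 26.2 (E13.5) and 0.061 (adult).

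The assembled transcripts of several members ran past their RefSeq ends. At the 3′ end the locus went 1790 bp beyond the RefSeq transcript for Hmga2, 898 bp for Igf2bp3, 792 bp for Lin28b, 567 bp for Igf2bp1, 387 bp for Trim71 and 253 bp for Hmga1. At the 5′ end it went 484 bp beyond for Igf2bp3 and 147 bp for Igf2bp1. The let-7 matches above come from the RefSeq 3′ UTRs alone, so extra matches in these extensions were not counted. The Igf2bp1 locus also holds the RefSeq hairpin Mir3063, and its FPKM covers both.

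Since the study asked about transcripts that start near developmental genes, the surroundings of the 9 genes were examined. Loci on the opposite strand were counted if they had no RefSeq protein-coding match and started within 3000 bp upstream. Such a locus was found for 4 of the 9 genes, beside 11.3% of the 12569 mRNA loci. That upstream of Igf2bp1 started 1219 bp away, had 2 exons and stood at 1.63 FPKM (E10.5), 1.14 (E13.5) and 0 (adult). That upstream of Igf2bp3 started 1510 bp away and stood at 1.17, 0.701 and 0 FPKM. Those of Trim71 (1075 bp) and Igf2bp2 (136 bp) stayed under 1 FPKM in every library, with at most 0.253 and 0.449. The last 3 had a single exon, for which the strand and the transcript itself are less sure.

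Antisense genes overlapped the loci of 3 of the 9, a count for which no share over all mRNA loci was computed. AI413582 stood at 6.12, 8.53 and 2.84 FPKM. It overlaps only the assembled extension of Hmga1, and its 3′ end lies just past the RefSeq end of Hmga1. The gene 2410003K15Rik overlaps the end of Igf2bp3 and stood at 13.4, 17.0 and 14.5 FPKM. The level of 2410003K15Rik in the adult stood beside 0.127 FPKM for Igf2bp3 itself. Inside Hmga2, 9230105E05Rik stood at 0.0572 FPKM in the adult and was listed at 0 in the E10.5 and E13.5 libraries. On the strand of Hmga2, 3 unspliced pieces with the same name stood at 2.09 to 2.91 FPKM at E10.5 and at 0 to 0.0371 at E13.5. The kit keeps strand, but whether strand was used in computing the FPKM is not given in the sources used here.

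RefSeq promoters, 250 bases before to 50 after the start, were found for 8 of the 9 genes, all but Igf2bp1. The window of Hmga2 (chr10:120476420-120476719) lies inside the span of its matched RefSeq transcript, which starts at 120476935. That of Igf2bp3 lies inside the span of its assembled transcript, which starts at 49215438. CACGTG, the palindrome that Myc and Max family proteins bind, occurred in 2 of the 8, Igf2bp3 and Lin28b, and in 7.15% of 32851 promoters. GGGCGG, read on both strands, occurred in 6 of 8, against 35.7% of promoters. CCAAT, read on both strands, occurred in 3 of 8, against 37.4%, and TATAAA in none of 8, against 13.6%. No motif overlapped another of another kind in the promoters printed here. The median GC content of the 8 was 59.8%, and that of all promoters 52.7%. The sets are unlike, since the 32851 promoters were not limited to genes expressed here and a gene could have several. Of each member only the first listed start was counted. The promoters with CACGTG are printed 5′ to 3′ on the gene's strand, with CACGTG and CCAAT (or its reverse complement ATTGG) in capitals.
Igf2bp3, chr6:49214905-49215204, minus strand: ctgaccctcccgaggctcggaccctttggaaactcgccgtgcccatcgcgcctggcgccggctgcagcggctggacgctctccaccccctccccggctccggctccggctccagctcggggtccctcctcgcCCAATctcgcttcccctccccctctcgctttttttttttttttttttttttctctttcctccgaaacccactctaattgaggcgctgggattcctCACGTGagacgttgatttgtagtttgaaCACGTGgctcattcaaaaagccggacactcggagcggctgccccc
Lin28b, chr10:45470152-45470451, minus strand: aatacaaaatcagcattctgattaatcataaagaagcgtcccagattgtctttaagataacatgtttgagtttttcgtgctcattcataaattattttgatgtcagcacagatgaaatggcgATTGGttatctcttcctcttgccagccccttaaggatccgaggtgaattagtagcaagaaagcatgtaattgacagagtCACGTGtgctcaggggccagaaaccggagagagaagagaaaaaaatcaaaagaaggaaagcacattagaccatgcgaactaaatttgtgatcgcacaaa

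Igf2bp3 holds CACGTG 2 times, and its promoter has a GC content of 60.3%, while that of Lin28b holds it 1 time and has 39.0%. Lin28b stood at 9.31, 2.20 and 0.346 FPKM, Igf2bp3 at 56.6, 38.1 and 0.127, and Mycn at 17.3, 21.7 and 0.617. A motif in a promoter is not a shown site of binding, and no binding data were part of these samples.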

How the data were processed

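The study's text states that paired-end reads of 3 total RNA libraries were mapped to mm10 with TopHat2 and assembled with Cufflinks, with and without UCSC annotation. The authors deposited FPKM values per merged locus and library, and the exon coordinates of the merged transcripts on mm10, a deposited table of unit other than expression. Tool versions and options, and the handling of multiply mapped fragments, are not given in the sources used here. Read counts were not used here, so depth was taken from the steps of low values and is approximate. The columns sum to 601115 FPKM (E10.5), 808971 (E13.5) and 443471 (adult).

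Genes were matched by name to their locus. Changes are differences of log2(FPKM + 1), counted past 1 and, more strictly, past 2, over the 12569 mRNA loci that reached 1 FPKM in any library. Of each list, up to 4 loci with the largest change from E10.5 to the adult were named, together with all 9 members and the 3 mRNA loci nearest to each. The values of 1 locus that this rule names are not reported here. Ago4, Myc, Max, Ptafr, Bmp10 and the further let-7 loci were named after their values were seen or as members of a small count. The members and lists were chosen with earlier results of these data known. Sequences are from RefSeq (GRCm38.p6), and seed matches were counted in the longest 3′ UTR of a matched RefSeq transcript. Alternatives were a pseudocount of 0.1, a threshold of 2, limits of 0.5 and 2 FPKM, and a filter at 1 FPKM in any library. Others were scaling by median of ratios or by the sum of single-gene mRNA loci without globin and mitochondrial loci. Subtraction of the median change of loci of like transcript length was added after seeing the data. The counting of changes was tested on simulated data. Python 3.11.15, numpy 2.4.6, pandas 2.3.3 and matplotlib 3.10.9 were used.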

Additional observations from a re-analysis of the deposited data

How the results depend on the processing

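No paired analysis was possible because only 1 library exists per stage, so no pairs can be formed. Of 30 recalculated counts of the 9 genes, 29 stayed within 1.5 times the reported count. The exception was the count lower at E13.5 than at E10.5, which was 5 at a threshold of 1 and 0 at a threshold of 2. The counts limited to genes at 1 FPKM or more in any library could not move, since all 9 passed. Under median-of-ratios scaling, which moved the median of all loci from -0.40 to -0.06 between E10.5 and the adult, the counts were 9 from E10.5 to the adult, 6 from E13.5 to the adult and 6 from E10.5 to E13.5, beside 18.4%, 18.9% and 6.29% of loci. Of 108 recalculated changes of single genes, 88 moved by less than 0.585 (a factor of 1.5) with their sign kept, 19 moved by more and 1 turned its sign. Of the 19, 16 came with a pseudocount of 0.1, under which low values count for more. The change that turned was that of Lin28a from E13.5 to the adult, 0.26 after subtraction of the median of loci of like length. The rise of Mycn from E10.5 to E13.5 was 0.16 with median-of-ratios scaling and 0.02 with the sum of mRNA loci. Adult levels of 5 to 8 fragments, for Lin28a, Igf2bp1, Igf2bp3, Hmga2 and Trim71, limit the size of any ratio to the adult.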
